A study of Mus musculus with 6 samples.

Results

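Genes of the splicing machinery and of heterogeneous nuclear ribonucleoproteins (hnRNPs) were followed in the striatum of Hdh4/Q80 mice and their wild-type littermates. The members were chosen by symbol: probe sets annotated with exactly 1 gene whose symbol begins with Hnrnp, Srsf, Sf3a, Sf3b, Snrp, U2af, Prpf, Ddx and a digit (Ddx3y left out), Celf, Elavl, Ptbp, Mbnl, Nova, Tra2 or Khdrbs. This gave 123 probe sets for 87 of the 8251 genes that the arrays name singly. The rule itself uses symbols and no measured value, but it was proposed with earlier results of these data known. The 3 tested mice were labelled Hdh4/Q80, a line called transgenic in the labels, in which the animals' own huntingtin gene carries a lengthened CAG tract, and the 3 control mice were wild-type littermates. All were female C57BL/6 animals aged 12 months, and the labels state no zygosity. Each mouse gave 1 Affymetrix array of striatal total RNA, and each value is a log2 expression level per probe set after robust multi-array averaging (RMA). The mice are numbered 7 to 9 (Hdh4/Q80) and 4 to 6 (wild type), as in the labels.

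Introns are removed from pre-messenger RNA by the spliceosome, which is built from small nuclear ribonucleoproteins (snRNPs), each an RNA with a ring of Sm proteins and its own further subunits. SR proteins bind exons and recruit the machinery, hnRNPs coat the transcript and often oppose them, and tissue-restricted regulators such as the neuronal Elavl and Celf families shift the outcome in brain. In Huntington's disease models, SR and hairpin-binding proteins such as SRSF6 and MBNL1 have been reported to bind the expanded CAG repeat in huntingtin RNA. DEAD-box helicases unwind RNA in splicing but also in ribosome assembly, export, translation and decay, so the Ddx genes here are not all splicing factors.

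Hdh4/Q80 replicate 8 stood apart from the rest, with a mean correlation of 0.992 with the other arrays across all probe sets, against 0.995 to 0.997 for the other 5 mice. The counts over the members and most of the differences named below are therefore also given without it, and the plot of differences shows both values for each named gene. Of 9 striatal neuron markers 7 were measured, and their summed linear signal ran from 12740 to 13861 in Hdh4/Q80 and from 12162 to 14702 in wild-type mice. Penk, the enkephalin precursor, read 12.94 to 13.14 in Hdh4/Q80 and 12.92 to 13.14 in wild-type mice. The differences of the 7 ran from -0.21 (Ptpn5, a striatal phosphatase, with overlapping groups) to 0.26 (Gad1, the GABA-synthesising enzyme, with all Hdh4/Q80 mice above the wild types; limma unadjusted p = 0.00862, adjusted p = 0.857), with a median of 0.018. Of 7 choroid plexus markers, 4 were measured, and their summed linear signal ran from 737 to 3029 in Hdh4/Q80 and from 705 to 1675 in wild-type mice. All 4 lay above 0 with overlapping groups, from 0.10 (Aqp1) to 1.08 (Ttr), with a median of 0.574. Without Hdh4/Q80 replicate 8 they ran from 0.01 (Aqp1) to 0.83 (Ttr). Ttr read 8.46, 10.59 and 11.24 in Hdh4/Q80 mice 7, 8 and 9, against 8.48, 8.32 and 10.26 in wild-type mice 4, 5 and 6. All 7 microglial markers were measured and lay below 0, with a sum of 2646 to 3251 in Hdh4/Q80 against 3505 to 3684 in wild-type mice. Their differences were uneven, from -0.35 (C1qb; limma adjusted p = 0.857) to -0.01 (Cx3cr1), with a median of -0.211. Without Hdh4/Q80 replicate 8 they ran from -0.19 (C1qb and C1qc) to -0.01 (Csf1r). With all mice kept, C1qa, C1qb, C1qc and Tyrobp had separate groups (limma unadjusted p from 0.0134 to 0.039, adjusted p = 0.857 each). Of 6 oligodendrocyte markers 5 were measured, with a sum of 9209 to 9593 in Hdh4/Q80 against 9953 to 10618 in wild-type mice. Of these 5, 3 lay below 0, with a median difference of -0.035 that ran from -0.31 (Mobp) and -0.23 (Mal) to 0.12 (Cnp). The groups were separate for Mobp and Mal (limma unadjusted p = 0.00295 and 0.00623, adjusted p = 0.857 each). Without Hdh4/Q80 replicate 8 their differences were -0.27 and -0.20. Of 5 astrocyte markers 4 were measured, all below 0 (1293 to 1568 in Hdh4/Q80 against 1501 to 1810 in wild-type mice). Their differences ran from -0.22 (Gfap) to -0.08 (Aqp4), and without Hdh4/Q80 replicate 8 from -0.17 (S100b) to 0.05 (Aqp4). S100b alone of these had separate groups (limma unadjusted p = 0.0222, adjusted p = 0.857). Over all genes on their brightest probe sets, 4.3% had a limma unadjusted p under 0.05 and 11.1% had separate groups. Of 6 cortical markers, 2 were measured (85 to 149 in Hdh4/Q80 against 88 to 288 in wild-type mice). No marker can be called absent, because RMA gives every probe set a value. In bulk tissue, fewer cells of a type and less RNA per cell cannot be told apart, and the part of these cells in the values below was not tested.

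The start regions of 3 members are shown because these genes had an unadjusted p under 0.05 on a probe set and a single listed start. No member passed the adjusted test, and the windows serve only as sequence context for genes that are described most fully. Each window runs from 250 bases before to 50 bases after the start, is taken from RefSeq on GRCm38.p6 and is written 5′ to 3′ on the gene's strand. Capitals mark matches on either strand. The motifs searched were the letters CCAAT for the box of that name, the letters TATAAA for the TATA box, the letters GGGCGG for the GC box, the letters CCGGAAG for ETS-type factors, and the letters TGACGTCA for the cyclic AMP response element. Prpf39 lies at chr12:65036084-65036383, Srsf3 at chr17:29032410-29032709 and Snrpg at chr6:86371290-86371589, all on the plus strand.
Prpf39: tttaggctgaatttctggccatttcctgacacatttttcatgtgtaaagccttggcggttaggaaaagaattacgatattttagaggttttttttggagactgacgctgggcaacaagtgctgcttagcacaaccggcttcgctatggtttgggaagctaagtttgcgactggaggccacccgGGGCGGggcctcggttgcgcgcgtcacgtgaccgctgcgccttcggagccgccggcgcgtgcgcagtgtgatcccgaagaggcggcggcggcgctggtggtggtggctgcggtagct
Srsf3: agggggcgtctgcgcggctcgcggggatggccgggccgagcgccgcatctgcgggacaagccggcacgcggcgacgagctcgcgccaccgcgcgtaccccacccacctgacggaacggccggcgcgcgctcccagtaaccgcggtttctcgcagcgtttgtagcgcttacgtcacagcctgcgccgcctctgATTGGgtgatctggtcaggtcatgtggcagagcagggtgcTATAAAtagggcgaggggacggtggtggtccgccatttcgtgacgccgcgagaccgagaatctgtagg
Snrpg: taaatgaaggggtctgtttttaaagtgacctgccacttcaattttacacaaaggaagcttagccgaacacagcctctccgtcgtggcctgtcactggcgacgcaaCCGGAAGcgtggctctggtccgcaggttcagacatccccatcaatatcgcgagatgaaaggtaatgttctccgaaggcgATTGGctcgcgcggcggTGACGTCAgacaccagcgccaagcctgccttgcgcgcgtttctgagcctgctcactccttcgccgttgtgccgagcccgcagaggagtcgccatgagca

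These windows differed in what they held. The Snrpg window had an ETS-type, a CCAAT and a cyclic AMP motif, the Srsf3 window a CCAAT box upstream of a TATA box, and the Prpf39 window a single GC box. Over all members the table held 108 windows for 77 of the 87 genes. The ETS-type motif was found in 28.7% of member windows, against 14.4% of the 8408 windows of all singly named genes on the arrays and 8.86% of all 32851 windows. CCAAT was found in 50.9%, against 37.0% and 37.4%, and the GC box in 63.0%, against 57.1% and 35.7%. The TATA box was found in 10.2% (9.98% and 13.6%) and the cyclic AMP motif in 3.7% (2.6% and 1.79%). Median GC content was 60.0% in member windows, 59.7% for genes on the arrays and 52.7% for all. The median count of CG pairs differed more: 25 in member windows, 18 for genes on the arrays and 7 for all. The letters of the ETS-type, GC box and cyclic AMP motifs each contain CG. Windows of 1 gene overlap, the motifs were matched by letters alone, and none of these shares was tested.

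No splicing or hnRNP gene differed between Hdh4/Q80 and wild-type striatum at the test's threshold. Of 123 member probe sets, 0 had an adjusted p under 0.05 by limma, Benjamini-Hochberg corrected across the 12422 probe sets of the arrays (0.0% of which passed), and the smallest adjusted p of a member was 0.857. Without adjustment, 5 member probe sets (4.07%) had p under 0.05, against a background of 5.1% of all probe sets. Of these, 2 were higher in Hdh4/Q80 mice (Prpf39 and Srsf3; background 2.9%) and 3 were lower (Snrpg, Ddx6 and Elavl4; background 2.21%). The share of members was below that of all probe sets in this fit, and which of the shares was larger depended on the setting. Without Hdh4/Q80 replicate 8 the count was 2 (1.63% of members, background 4.03%), without replicate 7 it was 11 (8.94%, background 8.44%) and without replicate 9 it was 11 (8.94%, background 9.28%). Without wild-type replicate 4 the count was 5 (4.07%, background 3.82%), without replicate 5 it was 3 (2.44%, background 3.27%) and without replicate 6 it was 2 (1.63%, background 2.02%). After cyclic loess or renewed quantile normalization the count was 8 (6.5%), above backgrounds of 5.16% and 4.98%. With array weights it was 11 (8.94%), below a background of 14.6%. It was 6 after median centring (4.88%, background 5.18%), 5 with trended and robust moderation (4.07%, background 5.11%), and 2 of the 91 members left without the dimmest 40% of probe sets (2.2%, background 4.54%).

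The measured differences were small. They ran from -0.31 (Elavl4) to 0.29 (Prpf39) on the log2 scale, Hdh4/Q80 minus wild type, and the median size was 0.09, against 0.07 over all probe sets. For 121 of the 123 member probe sets (98.4%, against 98.6% of all) the 95% interval left out a change of 1.5-fold, up or down; the exceptions were Elavl4 and a dim probe set of Ptbp2. A rise of 25% and a fall of the same size on the log2 scale both lay outside the interval for 84 (68.3%, against 75.7%). Without Hdh4/Q80 replicate 8 these counts were 122 (99.2%, against 99.5%) and 103 (83.7%, against 87.0%). These limits refer to the array scale, on which RMA shrinks the fold changes of dim probe sets.

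Members lay below 0 more often than above it: 76 of 123 probe sets (61.8%) had a lower mean in Hdh4/Q80 mice, against 51.1% of all probe sets, with a median difference of -0.026 against -0.003. Without Hdh4/Q80 replicate 8 the share was 53.7%, against 48.0% of all, and the median -0.006 against 0.004. The 3 Hdh4/Q80 mice lay entirely above the wild types for 5 member probe sets (background 6.67%) and entirely below them for 8 (background 5.05%), 13 in all or 10.6%, against 11.7% of all probe sets. With Hdh4/Q80 replicate 8 left out there were 8 above (background 10.7%) and 8 below (background 7.67%). By gene, on the brightest probe set of each, 59 of 87 were below 0 (67.8%, against 53.3% of all genes). When Hdh4/Q80 replicate 8 was left out, these shares were 59.8% and 48.6%, with medians of -0.024 and 0.002. The plot of values by mouse shows the 5 probe sets with an unadjusted p under 0.05 beside the other neuronal Elavl genes and Hnrnpdl.

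**Figure D1:**
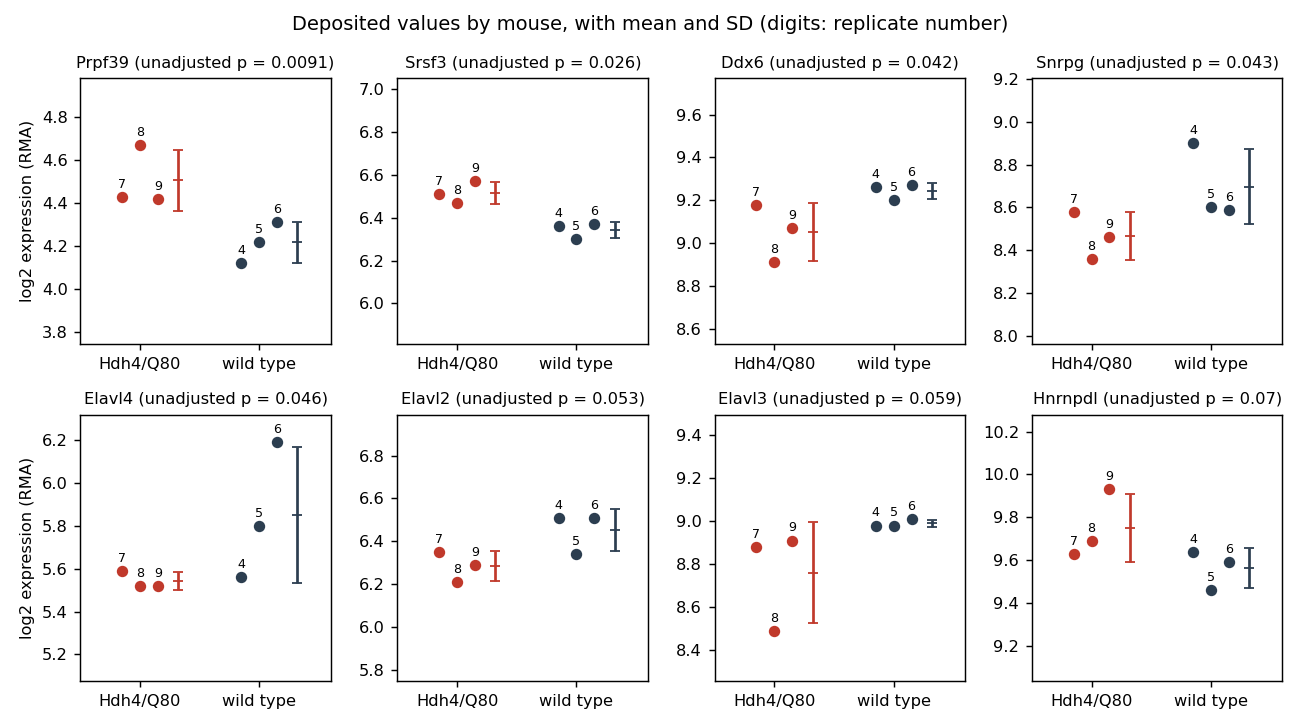
Log2 expression (vertical axis, each panel spanning the same range) of 8 member probe sets in 3 Hdh4/Q80 mice (left, red) and 3 wild-type mice (right, dark blue); points are mice with their replicate number, bars are the mean and SD. The groups do not overlap for Prpf39, Srsf3, Ddx6, Snrpg and Elavl3, and overlap for Elavl4, Elavl2 and Hnrnpdl.

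The 16 hnRNP genes were measured by 22 probe sets, of which 14 were above 0 and 8 below, with a median difference of 0.058 (0.037 without Hdh4/Q80 replicate 8) and 0 at an unadjusted p under 0.05. Hnrnpdl, a relative of the AU-rich element binding protein Hnrnpd, read 9.63, 9.69 and 9.93 in Hdh4/Q80 mice 7, 8 and 9, against 9.64, 9.46 and 9.59 in wild-type mice 4, 5 and 6. The groups overlapped, since Hdh4/Q80 replicate 7 lay just under wild-type replicate 4. The difference was 0.19 ± 0.0928 (SE; adjusted p = 0.857), and the other Hnrnpdl probe sets also lay above 0, at 0.10 and, for a very dim one, 0.09. The value of the brightest was 0.10 without Hdh4/Q80 replicate 9, its highest mouse. Hnrnpd itself read 8.17, 8.34 and 8.40 against 8.32, 8.11 and 8.06, a difference of 0.14 ± 0.0919 (0.09 without Hdh4/Q80 replicate 9 or wild-type replicate 6, and 0.22 without wild-type replicate 4). Both probe sets of Hnrnpu, a nuclear scaffold protein that binds chromatin-associated RNA, were above 0 (0.11 and 0.09).

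Hnrnpm, a splicing regulator, had the largest negative difference of the hnRNP genes, and it came mainly from 1 mouse. It read 8.62, 8.02 and 8.63 in Hdh4/Q80 mice, against 8.73, 8.67 and 8.63 in wild-type mice. Replicate 8 was far below the others of its group, and without it the difference of -0.25 ± 0.145 became -0.05. Hnrnph1 and Hnrnph3, which bind G-rich runs, differed by -0.14 and -0.12 with replicate 8 and by -0.04 and -0.05 without it. For Hnrnph3, which read 8.36, 8.05 and 8.17 in Hdh4/Q80 mice against 8.34, 8.32 and 8.28 in wild-type mice, replicate 9 was also below every wild type, and without replicate 7 the difference was -0.21. Hnrnpa1, the classic splicing silencer, differed by 0.14 (95% interval -0.14 to 0.42) with overlapping groups. That value was 0.01 if Hdh4/Q80 replicate 9 was left out, 0.05 if wild-type replicate 5 was, and 0.23 if Hdh4/Q80 replicate 8 or wild-type replicate 4 was. Hnrnpa2b1, a close relative, differed by -0.03 (-0.31 to 0.25) and, on its dimmer probe set, by 0.05, also with overlapping groups. Hnrnpc, which coats uridine-rich stretches, varied little within the groups: 6.20, 6.19 and 6.20 in Hdh4/Q80 mice against 6.27, 6.23 and 6.25 in wild-type mice, a separation of groups with a difference of -0.06 and an adjusted p of 0.889.

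The 10 SR-family genes (9 Srsf and Tra2b) had 17 probe sets, 13 of them below 0, with a median of -0.042 that became 0.009 without Hdh4/Q80 replicate 8. One probe set had an unadjusted p under 0.05. This was a probe set of Srsf3, the smallest SR protein, which read 6.51, 6.47 and 6.57 in Hdh4/Q80 mice, against 6.36, 6.30 and 6.37 in wild-type mice. All 3 Hdh4/Q80 mice were above all 3 wild types, by 0.18 ± 0.067 (SE; unadjusted p = 0.0261, adjusted p = 0.857), and the difference was 0.20 without Hdh4/Q80 replicate 8. The brighter Srsf3 probe set, with the suffix _f_at of less specific probe sets, read 7.10, 7.15 and 7.18 against 7.26, 6.77 and 7.07, so its groups overlapped (0.11 ± 0.111). That wider spread came from the wild types, and without wild-type replicate 5 the difference was -0.02.

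Srsf6, the SR protein reported to bind the huntingtin CAG repeat, read 8.26, 8.10 and 8.46 in Hdh4/Q80 mice, against 8.40, 8.31 and 8.45 in wild-type mice. The groups overlapped, with a difference of -0.11 and a 95% interval of -0.33 to 0.10 (-0.03 without Hdh4/Q80 replicate 8). Srsf4 and Srsf5 had differences of -0.13 each, which also became -0.03 without that mouse. With all mice kept, the dimmer Srsf4 probe set gave -0.03. Srsf1, the founding SR protein, was measured 4 times with differences of -0.12, -0.01, 0.06 and 0.18, with standard errors of 0.0704 to 0.129. Srsf2, which also sits in nuclear speckles, gave like values on its probe sets (-0.04 and -0.05; 0.01 and -0.01 without Hdh4/Q80 replicate 8), and Tra2b differed by -0.04 (0.02).

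Genes of the U2 snRNP and its loading factor U2AF, which recognise the branch point and 3′ splice site, numbered 11 with 13 probe sets. Of these, 10 were below 0, the median was -0.056 (-0.042 and 8 below 0 without Hdh4/Q80 replicate 8) and 0 had an unadjusted p under 0.05. Sf3b5, a small subunit of the SF3b complex, read 8.25, 7.84 and 8.41 in Hdh4/Q80 mice, against 8.43, 8.45 and 8.39 in wild-type mice. Replicate 8 was far below the wild types while replicate 9 fell among them, and the difference of -0.26 ± 0.125 became -0.10 without replicate 8. Sf3b1, the branch-point binding subunit, read 8.44, 8.27 and 8.43 against 8.57, 8.44 and 8.45 on its brighter probe set (-0.11, 95% interval -0.28 to 0.07; -0.05 without Hdh4/Q80 replicate 8). The dimmer Sf3b1 probe set gave -0.02. Sf3a3 and U2af1, the small U2AF subunit, differed by -0.14 and -0.16 (-0.06 and -0.03 without replicate 8), and U2af2, the large U2AF subunit, by 0.04 (0.09).

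The Sm and snRNP genes (8, with 10 probe sets) were evenly split by probe set, 5 above and 5 below 0 with a median of 0.002. By gene, on the brightest probe set of each, 5 of the 8 genes were below 0, with a median of -0.029 (-0.019 without Hdh4/Q80 replicate 8). One of them, Snrp1c-ps2, is annotated as a pseudogene and was kept because its symbol meets the rule (0.04). Snrpg, a protein of the Sm ring, read 8.58, 8.36 and 8.46 in Hdh4/Q80 mice, against 8.90, 8.60 and 8.59 in wild-type mice. The groups were separate but by only a small gap between Hdh4/Q80 replicate 7 and wild-type replicate 6. The difference was -0.23 ± 0.0988 (unadjusted p = 0.0426, adjusted p = 0.857), -0.18 without Hdh4/Q80 replicate 8 and -0.13 without wild-type replicate 4, the highest mouse. Its partner in the ring Snrpd3 differed by -0.09 and the U1 protein gene Snrpc by -0.08 (-0.04 each without Hdh4/Q80 replicate 8). Snrpb2, a U2 snRNP protein, read 8.42, 8.79 and 8.28 against 8.32, 8.31 and 8.31 on its brighter probe set, an _r_at one. That difference of 0.18 became 0.04 without Hdh4/Q80 replicate 8. The other Snrpb2 probe set, an _f_at one, gave 0.01 with all mice kept.

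The 8 Prpf genes are named after yeast pre-mRNA processing factors, among them parts of the tri-snRNP, and 8 of their 10 probe sets were below 0 (median -0.073, and -0.058 without Hdh4/Q80 replicate 8). Prpf39, named after a yeast U1 snRNP factor, had the smallest p-value of all members and also disagreed with itself. One probe set read 4.43, 4.67 and 4.42 in Hdh4/Q80 mice, against 4.12, 4.22 and 4.31 in wild-type mice, a difference of 0.29 ± 0.0895 (unadjusted p = 0.00908, adjusted p = 0.857; 0.21 without Hdh4/Q80 replicate 8). The other read 4.12, 4.09 and 4.19 against 4.32, 4.28 and 4.20, a difference of -0.14 ± 0.07. The groups were separate on both probe sets but in opposite directions. Both were dim, below the lower quartile of every array (5.79 to 5.86), and the first carries the suffix _r_at, which marks less specific probes.

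Prpf8, the protein at the heart of the spliceosome's catalytic centre, read 9.20, 8.68 and 9.22 in Hdh4/Q80 mice, against 9.38, 9.18 and 9.15 in wild-type mice. Only replicate 8 lay below the wild types, and the difference of -0.20 ± 0.137 became -0.03 without it. Prpf31, a tri-snRNP protein, kept its small difference of -0.09 (-0.10 without replicate 8), with 7.69, 7.68 and 7.64 in Hdh4/Q80 mice against 7.70, 7.78 and 7.81 in wild-type mice and separate groups. Prpf38b differed by -0.15 (-0.09 without replicate 8) with overlapping groups.

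The DEAD-box genes were the largest group, 23 genes with 37 probe sets, and 22 of these were below 0 (median -0.020; 18 and 0.004 without Hdh4/Q80 replicate 8). Ddx6, a helicase of processing bodies that represses translation and promotes messenger RNA decay, lay below 0 on all 3 of its probe sets. Its brightest read 9.18, 8.91 and 9.07 in Hdh4/Q80 mice, against 9.26, 9.20 and 9.27 in wild-type mice. The groups did not overlap, with a difference of -0.19 ± 0.0811 (unadjusted p = 0.0418, adjusted p = 0.857). The other probe sets of Ddx6 gave -0.18 and -0.13 with overlapping groups. Replicate 8 was the lowest mouse on each, and without it the 3 differences became -0.12, -0.08 and -0.05.

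Differences of some other helicases also shrank when replicate 8 was left out, though not all to the same degree. Ddx54, a nucleolar helicase, read 7.24, 6.73 and 7.24 in Hdh4/Q80 mice, against 7.44, 7.16 and 7.36 in wild-type mice, and -0.25 ± 0.137 became -0.08 without replicate 8. Ddx52, which acts in ribosome assembly, differed by -0.17 with that mouse and -0.06 without it. Its difference was -0.10 without wild-type replicate 5 and -0.26 without Hdh4/Q80 replicate 9. Ddx47, another ribosome assembly helicase, had separate groups on its brighter probe set (9.59, 9.79 and 9.62 against 9.50, 9.56 and 9.50; 0.15 ± 0.0751) and a difference of -0.05 on the other; without replicate 8 these were 0.09 and 0.03. Helicases with direct roles in splicing had overlapping groups on their brightest probe sets: Ddx5 differed by 0.09, Ddx17 by 0.02, Ddx39b by -0.05 and Ddx46 by 0.06. With single mice left out, Ddx5 ran from 0.02 (without wild-type replicate 5) to 0.20 (without wild-type replicate 4). Ddx3x, a translation factor, gave -0.08, 0.00 and 0.10 on 3 probe sets, and Ddx50 gave -0.04, -0.03, -0.02 and 0.17 on 4.

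Among the 11 tissue-restricted and other regulators, 10 of 14 probe sets were below 0, with the lowest median of the 7 groups at -0.098 (-0.052 without Hdh4/Q80 replicate 8). The 3 measured neuronal Elavl genes, which encode Hu proteins that stabilise and splice neuronal transcripts, all lay below 0. Elavl3 read 8.88, 8.49 and 8.91 in Hdh4/Q80 mice, against 8.98, 8.98 and 9.01 in wild-type mice. The wild types were nearly identical and all Hdh4/Q80 mice were below them, but replicate 8 by far the most. The difference was -0.23 ± 0.107 (adjusted p = 0.857) and -0.09 without that mouse. Elavl2 read 6.35, 6.21 and 6.29 against 6.51, 6.34 and 6.51, so that the groups overlapped only at Hdh4/Q80 replicate 7 and wild-type replicate 5 (-0.17 ± 0.0774; -0.13 without Hdh4/Q80 replicate 8).

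Elavl4 had the largest negative difference of all members, and here the spread lay in the wild types. It read 5.59, 5.52 and 5.52 in Hdh4/Q80 mice, against 5.56, 5.80 and 6.19 in wild-type mice. The probe set was dim and was left out by the filter on the dimmest 40%. Its Hdh4/Q80 values and wild-type replicate 4 lay below the lower quartile of every array (5.79 to 5.86). The groups overlapped, since wild-type replicate 4 was level with the Hdh4/Q80 mice. The difference was -0.31 ± 0.134 (unadjusted p = 0.0459, adjusted p = 0.857), -0.29 without Hdh4/Q80 replicate 8 and -0.14 without wild-type replicate 6. Wild-type replicate 6 was also the highest for Tbr1, a marker of cortical projection neurons. Tbr1 read 6.96, 5.95 and 6.92 in Hdh4/Q80 mice against 6.83, 6.10 and 8.04 in wild-type mice. Wild-type replicate 5 was the lowest wild type for Tbr1 but not for Elavl4. Neurod6, the other cortical marker measured, read 4.61, 4.53 and 4.55 against 4.40, 4.31 and 4.62. It differed by 0.12, against -0.38 for Tbr1. The part of cortical tissue in the Elavl4 value was not tested. Elavl1, the widely expressed member of the family, differed by -0.14 (interval -0.36 to 0.07), by -0.06 without wild-type replicate 4 and by -0.01 with array weights.

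The remaining regulators overlapped between the groups. Mbnl1, the muscleblind protein that binds expanded repeat hairpins, read 8.41, 8.27 and 8.45 in Hdh4/Q80 mice, against 8.52, 8.44 and 8.49 in wild-type mice (-0.10, 95% interval -0.27 to 0.06; -0.05 without Hdh4/Q80 replicate 8). Celf1, which often opposes muscleblind proteins, differed by -0.03 and -0.09 on its probe sets. Celf2 differed by -0.16 and 0.04 on its own (-0.06 and 0.04 without Hdh4/Q80 replicate 8). Ptbp2, the neuronal polypyrimidine tract binding protein, differed by -0.02 on its brighter probe set (0.06 without that mouse). On its dim one Hdh4/Q80 replicate 8 read 4.89, against 3.91 and 4.16 in the others of its group and 4.32, 3.99 and 3.94 in wild-type mice. The plot of differences shows that most filled points on the negative side moved toward 0 when that mouse was left out.

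**Figure D2:**
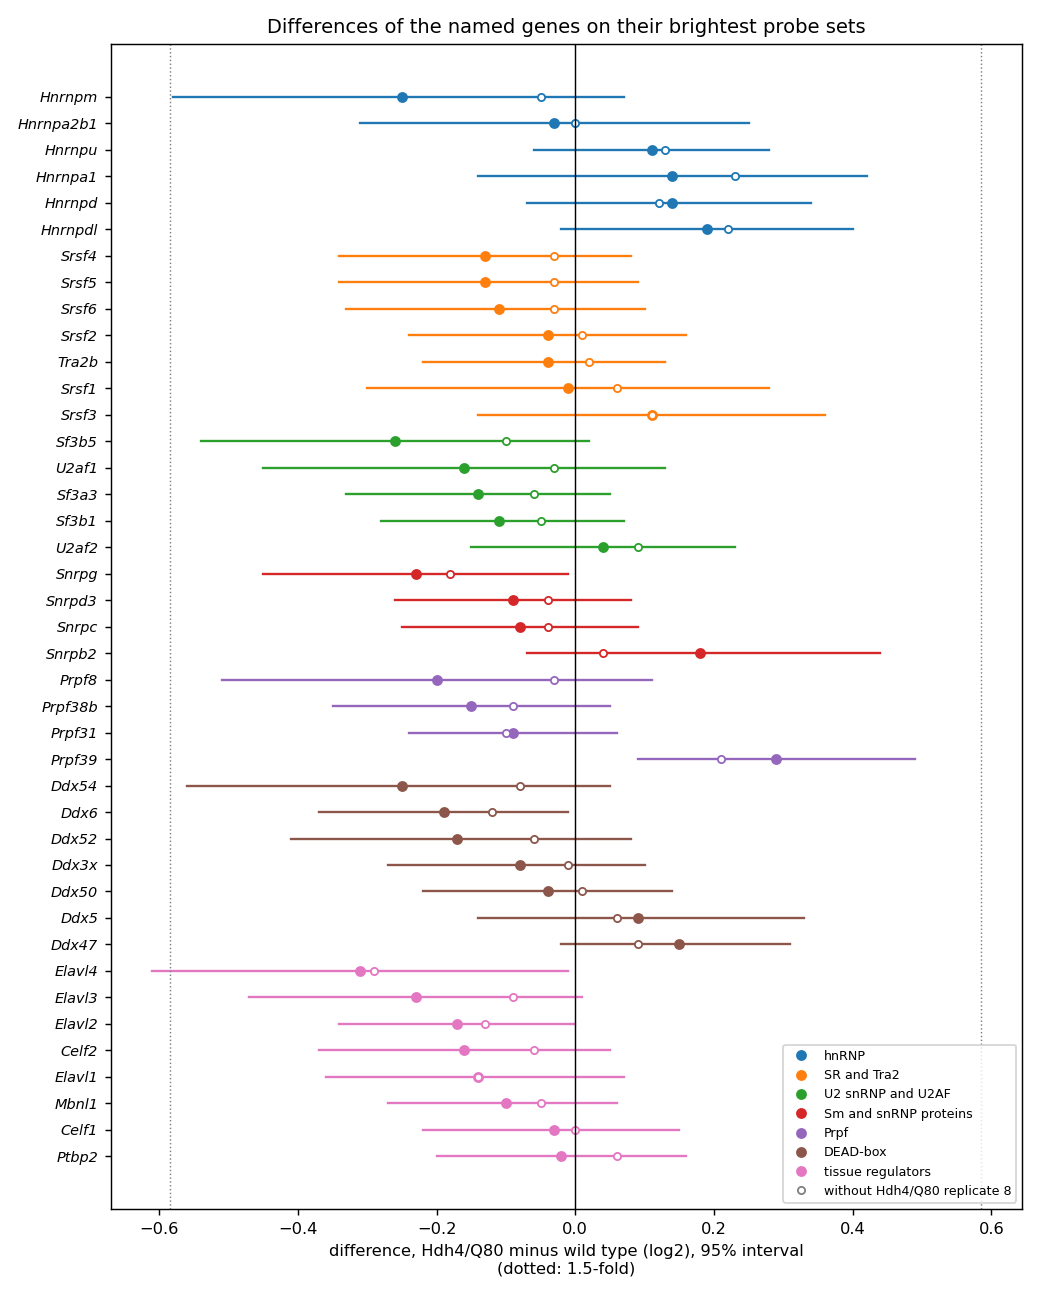
Difference between Hdh4/Q80 and wild-type means (horizontal axis, log2) for 41 named member genes on their brightest probe sets, coloured by group; lines are limma's 95% intervals, open circles the difference without Hdh4/Q80 replicate 8, and dotted lines mark a 1.5-fold change. Elavl4 is the one gene whose interval passes a dotted line, and Prpf39 has the largest positive difference at 0.29.

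Probe sets of 1 gene read the same 6 mice, so their agreement bears on the probes and not on the number of animals. Of 29 member genes with more than 1 probe set, 14 (48.3%) had the same sign on all of them, against 48.0% of the 2073 such genes on the arrays; without Hdh4/Q80 replicate 8 the shares were 48.3% and 47.2%. Members with like values on all probe sets included Ddx6, Srsf2 and Hnrnpu, and the widest span was that of Prpf39 (0.43). In Ddx1, Ddx24, Ddx47, Ddx50, Prpf39 and Ptbp2 the probe set with a suffix such as _f_at, _i_at or _r_at was above 0 while every plain _at probe set of the gene was below it. The suffixes _f_at and _r_at mark probe sets of lower specificity, which is not meant here of _i_at, the suffix carried by Ddx47. Without Hdh4/Q80 replicate 8 this opposition held for Prpf39 (0.21 and -0.11), and for none of the other 5 genes. The suffixed and plain probe sets then gave 0.03 and 0.00 for Ddx24, -0.02 and -0.04 for Ddx1, 0.09 and 0.03 for Ddx47, and -0.05 and 0.06 for Ptbp2, which turned round. Ddx50 gave 0.08 on the suffixed probe set and 0.01, -0.08 and 0.05 on the plain ones. Other member genes with both types of probe set did not show the opposition with all mice kept. In Ddx6, Ddx17, Hnrnpdl, Prpf19, Srsf3 and Srsf4 all probe sets had the same sign, and Ddx3x and Srsf1 were mixed in other ways. The share of such opposed genes over the whole arrays is not given here.

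**Figure D3:**
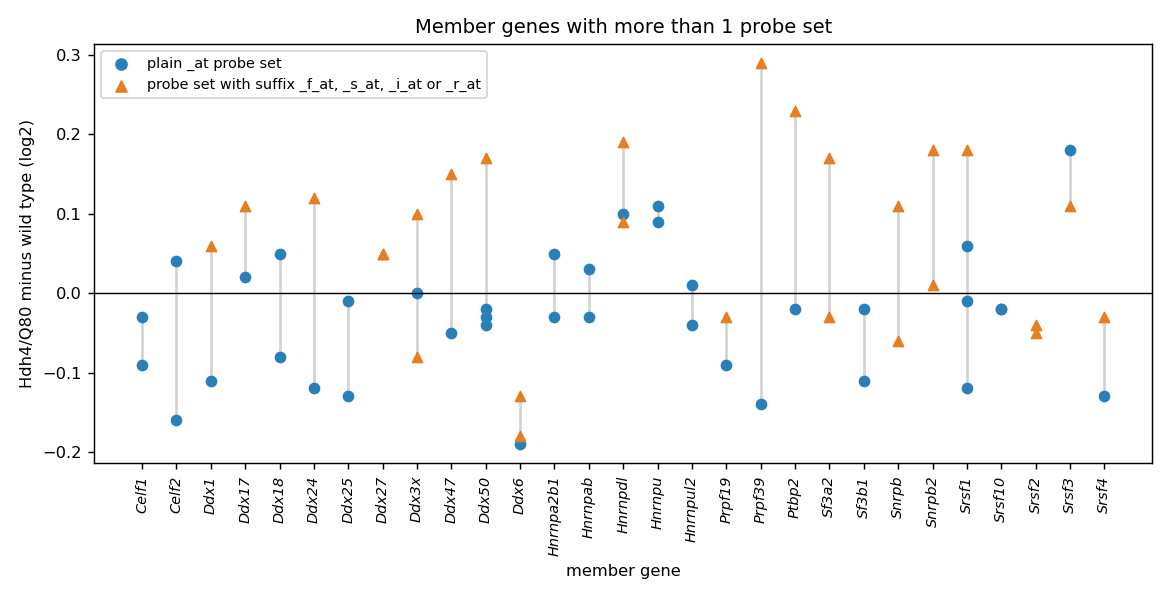
Difference between Hdh4/Q80 and wild-type means (vertical axis, log2) for every probe set of the 29 member genes that have more than 1; blue circles are plain _at probe sets and orange triangles those with another suffix. The triangles of Prpf39, Ptbp2, Ddx24, Ddx47 and Ddx50 lie above 0 and their circles below it. Those of Ddx6, Prpf19 and Srsf4 lie below 0 with their circles, and those of Ddx17, Hnrnpdl and Srsf3 above 0 with theirs.

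The type of probe set and single mice moved together with the members' lean to lower values. The median difference of -0.026 was -0.006 without Hdh4/Q80 replicate 8 and -0.008 without wild-type replicate 4, and it ran from -0.047 to -0.031 without any other mouse. Of 91 plain member probe sets 70.3% were below 0, against 52.8% of all plain ones, and of 32 with another suffix 37.5%, against 45.2%. Replicate 8 deviated from the mean of the other 5 arrays by a median of -0.134 over plain member probe sets and 0.052 over the others (-0.027 and 0.029 over all probe sets of each type). For Ddx24 it read 7.72 on the plain probe set, against 8.08 and 8.07 in the other Hdh4/Q80 mice and 8.12, 8.04 and 8.06 in wild-type mice, but 8.80 on the _r_at one, against 8.50 and 8.53 in Hdh4/Q80 and 8.52, 8.50 and 8.44 in wild-type mice. The same gene was thus lowest and highest in 1 mouse, depending on the probe set. Without replicate 8, 59.3% of plain members were below 0, against 47.8% of all plain probe sets, and 37.5% of the other members, against 48.5%.

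**Figure D4:**
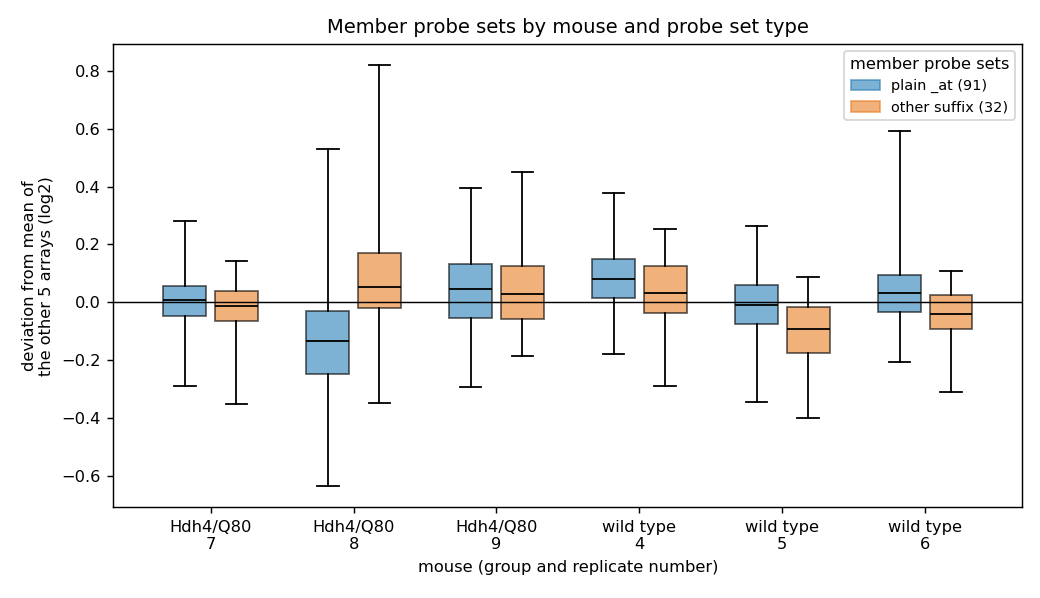
Deviation of each member probe set from the mean of the other 5 arrays (vertical axis, log2) in the 3 Hdh4/Q80 mice (left) and the 3 wild-type mice (right); boxes show the quartiles, lines the median and whiskers the full range, in blue for 91 plain _at probe sets and orange for 32 with another suffix. In Hdh4/Q80 replicate 8 the blue median is -0.134 and the orange one 0.052.

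Mice within a group also differed across the members as a block. Hdh4/Q80 replicate 8 was the lowest of all 6 mice for 59 of 123 member probe sets (48.0%), against 33.7% of all probe sets. Among the wild types replicate 4 was the highest for 71 (57.7%, against 38.0% of all) and replicate 5 the lowest for 69 (56.1%, against 34.7%), and replicate 9 was the highest Hdh4/Q80 mouse for 58 (47.2%, against 36.1%). Hnrnpa2b1 showed the spread: it read 9.44, 9.51 and 9.71 in Hdh4/Q80 mice, against 9.83, 9.32 and 9.59 in wild-type mice, so that wild-type littermates differed by more than the group means of 9.55 and 9.58. The median SD within groups was 0.111 for members and 0.099 for all probe sets. Probe sets of 1 array share its RNA and hybridisation, so these shares are descriptions.

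Other genes of splicing and RNA processing, outside the symbol rule, gave a like picture. Of 111 listed genes, 79 had a probe set of their own, and 0 passed the adjusted test. Below 0 were 48 (60.8%, against 53.3% of all genes on their brightest probe sets), with a median of -0.030. Without Hdh4/Q80 replicate 8 these shares were 53.2% and 48.6%, and the median was -0.006. The groups were separate for 7 (8.86%, against 11.1% of all genes), with Hdh4/Q80 mice above for 2 and below for 5. Over all 8251 genes they were above for 484 and below for 431. Unadjusted limma p-values were under 0.05 for 4.3% of all genes on their brightest probe sets, 179 of them higher and 176 lower in Hdh4/Q80 mice. Among the listed genes they were under 0.05 for 4 (5.06%), each lower in Hdh4/Q80 mice. With Hdh4/Q80 replicate 8 left out the count was 2 (2.53%, against 3.47% of all genes), and these were Luc7l3, a U1-associated factor, with a difference of -0.23 (-0.08 with that mouse), and Ncbp2. In that limma fit the unadjusted p was 0.0145 for Luc7l3, 0.0468 for Ncbp2, 0.0866 for Fubp1, 0.0908 for Esrp1 and 0.12 for Sfpq. Ncbp2, the cap-binding subunit, read 6.01, 5.94 and 6.12 in Hdh4/Q80 mice, against 6.20, 6.20 and 6.26 in wild-type mice, with separate groups (-0.20 ± 0.0728; -0.16 without replicate 8). Fubp1, a single-strand nucleic acid binding protein, was also separate (-0.16 ± 0.07). Sfpq, a paraspeckle protein (-0.32 ± 0.134, and -0.17 without replicate 8), and Esrp1, an epithelial splicing regulator (-0.20 ± 0.0841), had overlapping groups. Esrp1 was dim, with every value below the lower quartile of every array (5.79 to 5.86). By limma, each of the 4 stood at an adjusted p of 0.857.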

How the data were processed

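Striatal RNA of 3 Hdh4/Q80 and 3 wild-type mice was measured, 1 array per mouse. The authors deposited log2 expression per probe set, which the submitters' processing notes credit to RMA (affy), with no version or build named. RMA removes global changes in RNA amount. The number of arrays limits precision. The design text counts 3 mice per group.

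After 66 controls were left out, 12422 probe sets were fitted with limma 3.58.1 under R 4.3.3 (lmFit, then eBayes, no covariates, 4 residual and 5.81 prior degrees of freedom), with two-sided p-values and Benjamini-Hochberg adjustment over all of them at 0.05. The fit was also run on simulated data with independent noise and changes larger than any member difference. That run does not bear on the power to find differences of the sizes seen here. Names came from the platform annotation; 87 of 87 member genes matched the GRCm38.p6 gene table by identifier. The 7 probe sets that name a member with other genes were left out. A gene's main probe set was its brightest over the 6 arrays. Genes were named by a rule: up to 4 of smallest p per group, any at p under 0.01, any with 3 or more probe sets, a panel of 22 genes (18 measured) and 4 other splicing genes. Genes outside it (Hnrnpc, Hnrnph1, Hnrnph3, Snrp1c-ps2, Prpf19, Ddx1, Ddx17, Ddx24, Ddx39b, Ddx46 and Luc7l3) were chosen after their values were seen. So were the cell type markers Tbr1, Neurod6, Penk, Gad1, Ptpn5, Ttr, Aqp1, Mobp, Mal, Cnp, C1qa, C1qb, C1qc, Tyrobp, Cx3cr1, Csf1r, Gfap, Aqp4 and S100b. The members and lists were chosen with earlier results of these data known. Alternatives were a filter on the dimmest 40%, median centring, quantile and cyclic loess normalization, array weights, trended and robust moderation, averaging the probe sets of each gene, and dropping each mouse in turn.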

Additional observations from a re-analysis of the deposited data

How the results depend on the processing

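In every alternative run, 0 of the members and 0 of all probe sets passed the adjusted test; the lowest adjusted p of a named gene was 0.147. The 5 members at an unadjusted p under 0.05 became 11 with array weights (background 14.6%), 8 after cyclic loess or quantile normalization, 2 without the dimmest 40% of probe sets (fewer were tested) and 2 to 11 with 1 mouse left out; the cause was not tested. The members' median difference (-0.026) stayed within -0.047 to 0.000. Of 282 gene and setting pairs, 15 were opposite in sign. With array weights, resting on Hdh4/Q80 replicate 7 (weight 6.19, against 0.228 for replicate 8), Celf1 became 0.11, Ddx3x 0.04, Ddx50 0.05, Ptbp2 0.06, Snrpd3 0.01, and Tra2b and U2af1 0.00. With the mean of probe sets Ddx3x became 0.01, Ddx50 0.02, Hnrnpa2b1 0.01, Ptbp2 0.11 and Srsf1 0.03. Hnrnpa2b1 became 0.02 after cyclic loess and 0.00 after quantile normalization, and Srsf2 0.01 after cyclic loess. With 1 mouse left out, 32 of 41 named genes kept their sign; Celf1 ran from -0.11 to 0.02, Ddx50 from -0.10 to 0.01, Hnrnpa2b1 from -0.15 to 0.10, Ptbp2 from -0.06 to 0.06, Srsf1 from -0.13 to 0.12, Srsf2 from -0.13 to 0.01, Srsf3 from -0.02 to 0.22, Tra2b from -0.08 to 0.02 and U2af2 from -0.03 to 0.09. No paired analysis was possible because the groups share no replicate number.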
